A study of Mus musculus with 2 samples.

Results

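The loci of 9 genes of the TGF-beta pathway were examined for open chromatin in CD8-positive alpha-beta T cells of the naive resting state: the ligand gene Tgfb1, the receptor genes Tgfbr1 and Tgfbr2, the signal transducers Smad2, Smad3 and Smad4, the inhibitory Smad7, and the co-repressors Ski and Skil. The genes were chosen by name from the pathway, with earlier results of these data known. They are 9 of the 21827 protein-coding symbols of the GENCODE M21 annotation of mm10. Each locus took in the gene body and 25 kb beyond both ends, and all peaks and footprints of each library inside it were taken. A promoter was the stretch within 1000 bp of an annotated start of a protein-coding transcript.

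The data were 2 DNase-seq libraries of 1 group, with no second condition. In this assay nuclei are treated with the enzyme DNase I, which cuts open chromatin more readily than DNA wrapped in nucleosomes, and the cut ends are sequenced. The cells came from virgin male adult B6CASTF1/J mice aged 2 months, a cross of 2 inbred strains, with no treatment named in the labels. The libraries are numbered biological replicates 2 and 3 and carry the same donor label, so the spread between them may be technical.

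TGF-beta is secreted in a latent form and, once released, binds the type II receptor TGFBR2, which then phosphorylates the type I receptor TGFBR1. The activated type I receptor phosphorylates SMAD2 and SMAD3, which pair with SMAD4, enter the nucleus and bind DNA at many target genes. SMAD7 blocks the receptors and is itself switched on by the pathway, while SKI and SKIL (also called SnoN) hold SMAD complexes in a repressed state. In T cells the pathway is known for restraining activation and for a part in keeping naive cells at rest.

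Replicate 3 stood apart from replicate 2 in its number of peaks and at the genes that define the labelled cell. The authors' shorter peak list, called the stricter list here because each of its peaks held a deposited false discovery rate no higher than 0.001, had 38223 peaks in replicate 2 and 17061 in replicate 3. The smallest step between signal values was 6.05 times as large in replicate 3, which would be the ratio of depths if signal is scaled to depth. A stricter promoter peak was found in replicate 2 at 8 of 11 T cell, CD8 and naive T cell marker genes, with a summed signal of 21.5, and in replicate 3 at 1 of 11 (Cd8b1), with a summed signal of 3.16. The longer, permissive list of replicate 3, for which that limit was 0.05, had such a peak at 3 of the 11. Cd8a and Tcf7 were among the markers with no promoter peak in either stricter list. Ccr7, the homing receptor of naive T cells, had a promoter signal of 6.54 and 20 regions in its locus in replicate 2, and no peak in its locus in the stricter list of replicate 3. Of 11 marker genes of CD4 T, B, myeloid, NK and erythroid cells, 1 had a promoter peak in replicate 2 (Itgam, 0.657) and 0 had one in replicate 3. Over all protein-coding genes, 50.5% had a stricter promoter peak in replicate 2 and 40.9% had one in both stricter lists. The share for replicate 3 by itself is not given here, and whether the markers differ from other genes was not tested. Counts below are therefore given for all peaks of replicate 2 as well as for those found in both libraries, and the absence of a peak from replicate 3 cannot be read as closed chromatin.

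The pathway's core genes carried promoter peaks, all of them in replicate 2 and most of them in both libraries. All 9 promoters held a stricter peak in replicate 2, where 50.5% of protein-coding genes did. Both stricter lists had a promoter peak for 7 of the 9, where 40.9% of protein-coding genes had one, and the exceptions were Tgfbr2 and Smad7. With the permissive list of replicate 3 the count was 8, and Smad7 was the gene with no promoter peak in either list of that library. Signal, the authors' value for each peak, whose scaling is not stated, differed widely between the genes. In order of the mean over the libraries, Ski and Smad4 were highest, Skil and Tgfbr1 next, Smad2 and Tgfb1 lower, and Smad3 lowest. The library values of Ski, Smad4, the pair Skil and Tgfbr1, the pair Smad2 and Tgfb1, and Smad3 did not overlap. Within each pair they did overlap, and the genes changed places between the libraries. Percentiles below rank a promoter peak among all stricter peaks of its library. Among the genes with a stricter promoter peak, every member ranked lower. In replicate 2 these percentiles were 90.5 at Ski, 88.7 at Smad4, 72.8 at Skil, 66.1 at Tgfbr1 and 49.1 at Tgfb1. They were 46.7 at Smad2, 46.3 at Tgfbr2, 42.1 at Smad7 and 26.3 at Smad3. In replicate 3 they ran from 22.1 at Smad3 and 35.6 at Tgfb1 to 88.8 at Smad4 and 94.3 at Ski.

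**Figure D1:**
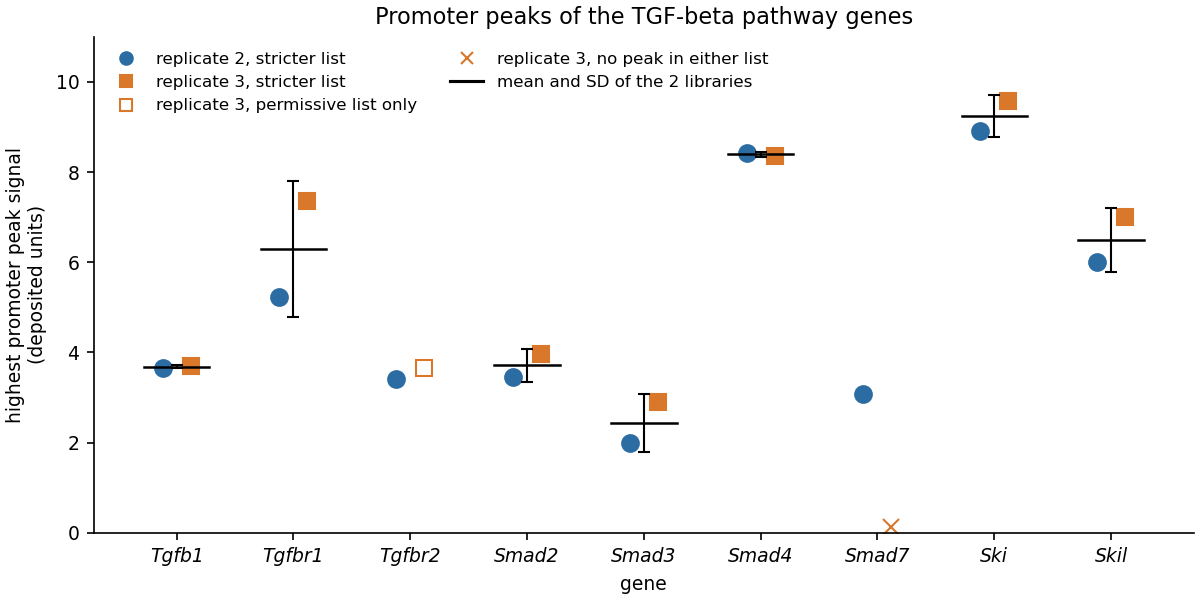
Highest promoter peak signal (deposited units, vertical axis) of the 9 genes (horizontal axis), with circles for replicate 2, squares for replicate 3 (open where the peak is in the permissive list only, a cross where there is none) and a line with bars for the mean and SD of the 2 libraries where both have a stricter peak. Ski and Smad4 lie above 8 in both libraries, and Smad7 has no point for replicate 3.

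The ligand gene Tgfb1 (ENSMUSG00000002603.15, plus strand, chr7:25687002-25705077) had a promoter of middling signal, with promoters of neighbouring genes on either side that were as strong or stronger. Its own promoter peak spanned the start site at chr7:25686741-25687220 and measured 3.66 in replicate 2 and 3.70 in replicate 3 (mean 3.68 ± 0.0341, SD, n = 2). That placed it at percentile 83.0 of all stricter peaks in replicate 2 and at percentile 60.1 in replicate 3. Within the 25 kb flanks, the promoter of B9d2, a gene of the ciliary transition zone, at chr7:25680661-25681175 had the strongest region of the locus, with 6.39 and 7.50 (mean 6.95 ± 0.781, n = 2). The promoter of Ccdc97 at chr7:25718881-25719180 had 4.14 and 3.70. These 3 promoters were the regions of the locus found in both libraries, and no region outside promoters was. Inside Tgfb1, replicate 2 alone had 3 further regions beyond the promoter window, the strongest an intronic one at chr7:25689421-25689480 with 1.62. Replicate 3 had that intronic site in its permissive list, with 2.53. A second Ccdc97 promoter region at chr7:25720061-25720260 had 1.39 in replicate 2 and no peak in replicate 3.

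In replicate 2 the 2 receptor genes differed in where their open sites lay. Tgfbr1 (ENSMUSG00000007613.15, plus strand, chr4:47353222-47414931), which encodes the type I receptor kinase, had a strong promoter and 5 regions in its locus. Those 5 were as many as or more than in 80.1% of all protein-coding loci, and 74.6% of loci whose gene is of similar length. Tgfbr2 (ENSMUSG00000032440.13, minus strand, chr9:116084293-116175360), which encodes the ligand-binding type II receptor, had a weaker promoter and regions along the whole gene. The Tgfbr1 promoter peak at chr4:47352961-47353260 measured 5.23 in replicate 2 and 7.36 in replicate 3 (mean 6.30 ± 1.51, SD, n = 2), percentiles 90 and 90.6 of all stricter peaks. All 4 footprints that replicate 3 had in that region overlapped footprints of replicate 2, which had 7. A footprint is a short stretch inside open chromatin that is cut less than its surroundings, a pattern that bound proteins can leave.

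The part of that peak upstream of the start site is shown to let the footprints be read in sequence, followed by the only other region of the Tgfbr1 locus found in both libraries. Here and below, capitals mark the bases inside footprints of replicate 2, and sequences are from the GRCm38 reference (mm10), which carries the C57BL/6J allele and not the CAST allele of these mice. Both are on the plus strand, at chr4:47352961-47353221 and chr4:47438121-47438280.
Tgfbr1 promoter: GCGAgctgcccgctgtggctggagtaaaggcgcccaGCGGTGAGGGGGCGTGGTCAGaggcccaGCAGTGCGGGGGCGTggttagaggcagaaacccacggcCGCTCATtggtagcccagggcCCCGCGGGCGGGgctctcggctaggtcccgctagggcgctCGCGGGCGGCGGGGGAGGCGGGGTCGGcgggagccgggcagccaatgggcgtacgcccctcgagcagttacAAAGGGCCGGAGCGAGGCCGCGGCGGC
Tgfbr1 downstream site: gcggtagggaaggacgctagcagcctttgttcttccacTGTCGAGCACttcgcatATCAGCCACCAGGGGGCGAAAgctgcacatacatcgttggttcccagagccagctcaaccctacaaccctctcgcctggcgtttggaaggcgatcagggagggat

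The promoter stretch was 75.1% G and C with 31 CpG dinucleotides. It held 2 matches to GGGCGG, the box bound by KLF and SP factors. Both lay inside footprints of replicate 2, and 1 of them overlapped a footprint of replicate 3. The downstream site lay between genes, 23.3 kb past the end of Tgfbr1, measuring 1.47 in replicate 2 and 1.94 in replicate 3 (mean 1.71 ± 0.334, n = 2). The second run of capitals in it contains a match to the consensus of CTCF, the insulator protein, and a footprint of replicate 3 overlapped the end of that run. The strongest region of replicate 2 alone was 1.59 kb upstream of Tgfbr1 at chr4:47351521-47351740, with 1.25 there and 1.40 in the permissive list of replicate 3. The next was in the promoter window at chr4:47352141-47352740, with 0.761.

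At Tgfbr2, replicate 2 had 11 regions and replicate 3 had 1. The promoter peak at chr9:116175141-116175380, over the start site, had a signal of 3.41 in replicate 2, percentile 81.5 of its stricter peaks. Replicate 3 had a peak there in its permissive list, with 3.66. The lowest false discovery rate the authors deposited within the region was 1.38e-23 in replicate 2 and 0.00107 in replicate 3, just above the limit of the stricter list. The region found in both stricter lists lay in an untranslated exon near the 3′ end of the gene, at chr9:116088021-116088179, with 1.36 and 2.71 (mean 2.03 ± 0.956, n = 2). Its ratio of replicate 3 to replicate 2, 2.00, was the highest among the shared regions of the 9 loci. Outside the promoter the strongest region of replicate 2 was 13.8 kb upstream of the start site, with 2.51 there and 2.85 in the permissive list of replicate 3. That region also lay at the promoter of the noncoding gene Gm4668. It is shown on the minus strand, the strand of Tgfbr2, at chr9:116189021-116189260, because it is the strongest region of this locus outside the promoter.
Tgfbr2 upstream site: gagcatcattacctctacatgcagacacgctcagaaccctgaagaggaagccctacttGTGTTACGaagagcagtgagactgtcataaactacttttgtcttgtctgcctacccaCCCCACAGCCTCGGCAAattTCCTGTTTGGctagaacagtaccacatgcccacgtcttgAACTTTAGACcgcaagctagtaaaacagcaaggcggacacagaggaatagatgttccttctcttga

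This stretch was less rich in G and C, at 47.9% with 6 CpG dinucleotides, and held 2 matches to CAGAC, the short sequence bound by SMAD proteins, and 1 match to the RUNX core TGTGGT. None of these 3 matches lay within a footprint. Replicate 2 had 4 footprints in it and replicate 3 had 1, which overlapped none of those 4.

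The 2 receptor-activated SMAD genes had the fewest and nearly the most regions of the 9 loci in replicate 2. Smad2 (ENSMUSG00000024563.16, plus strand, chr18:76241580-76310963) had 3 regions, all in its promoter window and none elsewhere within 119 kb. The strongest, at chr18:76241761-76241980, had 3.45 in replicate 2 and 3.97 in replicate 3 (mean 3.71 ± 0.373, n = 2), and the neighbouring one at chr18:76241201-76241640 had 2.49 and 3.84 (mean 3.17 ± 0.953, n = 2). The third, at chr18:76242081-76242431, was found in replicate 2 alone with 0.470.

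Smad3 (ENSMUSG00000032402.12, minus strand, chr9:63646767-63757994) had 12 regions in replicate 2, and 2 of them were found in replicate 3. Those 12 were as many as or more than 98.8% of all protein-coding loci and 95.5% of the 2182 loci whose gene is of similar length. The Smad3 promoter peak at chr9:63757901-63758400 was the weakest of the 9, with 1.98 and 2.89 (mean 2.44 ± 0.641, n = 2), percentiles 66.9 and 46.7.

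An intronic site 51.4 kb inside Smad3, at chr9:63706421-63706700, was stronger than the gene's own promoter in both libraries. Its signal was 4.18 in replicate 2 and 3.48 in replicate 3 (mean 3.83 ± 0.495, n = 2), and it was the strongest region outside promoters in the 9 loci that both libraries shared. The next strongest of the locus, at chr9:63720861-63721140 in the same gene, had 3.24 in replicate 2 and 2.12 in the permissive list of replicate 3. A site at chr9:63740621-63740840, also intronic, had 2.34 in replicate 2 and no peak in replicate 3. The shared intronic site is shown on the strand of Smad3, the minus strand.
Smad3 intron site: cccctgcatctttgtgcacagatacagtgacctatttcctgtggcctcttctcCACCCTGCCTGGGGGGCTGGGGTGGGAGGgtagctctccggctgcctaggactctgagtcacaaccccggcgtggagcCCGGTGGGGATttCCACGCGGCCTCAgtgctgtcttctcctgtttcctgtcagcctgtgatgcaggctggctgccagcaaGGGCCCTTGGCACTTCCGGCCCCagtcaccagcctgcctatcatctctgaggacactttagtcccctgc

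The last run of capitals holds the ETS core CCGGAAG, read on the other strand, and the unprotected stretch between the first and second runs holds a match to the AP-1 sequence TGANTCA. Replicate 3 had 1 footprint in this site, and it overlapped a footprint of replicate 2.

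Smad4 (ENSMUSG00000024515.13, minus strand, chr18:73639009-73703780), which encodes the partner shared by the SMADs of the TGF-beta and BMP branches, had a strong promoter that hardly differed between the libraries. The peak at chr18:73703721-73704020 measured 8.43 in replicate 2 and 8.36 in replicate 3 (mean 8.39 ± 0.0524, n = 2), percentiles 96.8 and 94.3. Its other shared region lay between genes past the 3′ end, at chr18:73623201-73623380, with 1.78 and 1.76. The strongest regions of replicate 2 alone were intronic and weak, with 0.858 at chr18:73643081-73643440 and 0.798 at chr18:73644874-73645160.

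Smad7 (ENSMUSG00000025880.11, plus strand, chr18:75367529-75395935) had the most regions of the 9 loci in replicate 2 and none at its gene in the stricter list of replicate 3. Replicate 2 had 14 regions, as many as or more than 99.4% of all protein-coding loci and 99.8% of the 2182 loci whose gene is of similar length, for which the median was 3. Of these, 5 lay in promoter windows, 5 in introns and 4 between genes. The promoter peak at chr18:75367281-75367780, over the start site, had a signal of 3.09, percentile 79.2, and 9 footprints. Replicate 3 had no peak there in either list and no position with a deposited false discovery rate. Among the 1079 promoter peaks of replicate 2 with a signal within 10% of that value, 90.9% were in the stricter list of replicate 3 and 97.5% in the permissive list. The strongest intronic site, at chr18:75377421-75377800, had 3.62 in replicate 2 and was likewise in neither list of replicate 3, where 86.3% and 95.9% of 611 peaks of similar signal outside promoters were found. The intronic site at chr18:75374181-75374400 had 3.59 in replicate 2 and 4.11 in the permissive list of replicate 3. Both regions that Smad7 shared between the stricter lists lay downstream of the gene, between genes: chr18:75410259-75410623 with 3.00 and 2.98 (mean 2.99 ± 0.0127, n = 2), and chr18:75419441-75419740 with 3.42 and 1.81 (mean 2.61 ± 1.14, n = 2). The ratio of the latter, 0.529, was the lowest among the shared regions of the 9 loci. Replicate 3 also lacked promoter peaks at most of the T cell marker genes, as given above, and whether that bears on its missing Smad7 peaks was not tested.

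The co-repressor genes both had strong promoters. Ski (ENSMUSG00000029050.15, minus strand, chr4:155154075-155222592) had the highest promoter signal of the 9 genes, 8.91 in replicate 2 and 9.58 in replicate 3 (mean 9.24 ± 0.472, n = 2), percentiles 97.3 and 96.9. The peak was centred 739 bp upstream of the start site, so that a promoter window of 500 bp does not include it. The other region of Ski shared by both libraries was intronic, at chr4:155178361-155178620, with 2.38 and 2.17 (mean 2.27 ± 0.150, n = 2). Further intronic sites at chr4:155200841-155201120 and chr4:155169041-155169320 had 2.86 and 1.76 in replicate 2 and no peak in replicate 3. Skil (ENSMUSG00000027660.16, plus strand, chr3:31095058-31122577) had the most shared regions, 5 of 7, at percentile 98.0 of all protein-coding loci. Of its 3 promoter regions, the strongest at chr3:31094901-31095140 had 6.0 and 7.0 (mean 6.50 ± 0.709, n = 2), that at chr3:31094561-31094900 had 4.75 and 4.47, and that at chr3:31095521-31095940 had 1.35 and 1.76. The other shared regions were 1.18 kb upstream at chr3:31093741-31094020, with 1.83 and 2.53, and downstream at chr3:31139121-31139300, with 2.43 and 1.94. Regions at chr3:31146041-31146240 and chr3:31138581-31138748, found in replicate 2 with 0.791 and 0.724, were in the permissive list of replicate 3 with 1.08 and 0.949.

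The Ski promoter peak is shown whole, on the minus strand at chr4:155223181-155223480, and the strongest Skil promoter peak up to the start site, on the plus strand at chr3:31094901-31095057, as 2 of the strongest promoters of the set.
Ski promoter: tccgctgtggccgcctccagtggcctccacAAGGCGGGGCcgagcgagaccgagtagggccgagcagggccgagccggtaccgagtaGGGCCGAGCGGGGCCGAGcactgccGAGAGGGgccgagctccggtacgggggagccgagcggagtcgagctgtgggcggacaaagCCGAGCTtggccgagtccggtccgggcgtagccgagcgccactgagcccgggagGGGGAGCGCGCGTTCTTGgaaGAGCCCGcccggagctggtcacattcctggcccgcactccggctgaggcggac
Skil promoter: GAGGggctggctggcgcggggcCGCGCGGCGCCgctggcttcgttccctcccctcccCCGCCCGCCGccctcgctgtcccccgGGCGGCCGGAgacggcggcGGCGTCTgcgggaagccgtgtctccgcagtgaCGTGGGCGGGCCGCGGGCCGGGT

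The Ski stretch held 37 CpG dinucleotides and 2 matches to GGGCGG. Replicate 3 had 4 footprints in it, of which 1 overlapped a footprint of replicate 2. The Skil stretch was 82.8% G and C, with 4 matches to GGGCGG, 1 to CAGAC and 1 to GGCGCC, a GC-rich sequence also bound by SMAD proteins. Its last run of capitals, a footprint of 34 bp that runs on past the start site, was met by the single footprint of replicate 3 in this stretch, 31 bp long. Across the printed end the 34 bp footprint of replicate 2 holds the CREB/ATF sequence TGACGTCA.

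Over the 9 loci, replicate 2 had 80 stricter peaks and replicate 3 had 23 (mean 51.5 ± 40.3, SD, n = 2). Merged, these made 79 regions, of which 21 were found in both libraries, 58 in replicate 2 alone and 0 in replicate 3 alone. The median locus of the set held 10 regions in replicate 2 and 2 in both, where the median over all protein-coding loci was 3 and 1. Of the replicate 2 peaks in the loci, 27.5% (22 of 80, Wilson 95% interval 18.9 to 38.1, covering counting error only) were found in the stricter list of replicate 3, where 42.5% of all replicate 2 peaks were. Several of the 80 come from the same promoter, so they are not independent, as the interval assumes, and it is no test against that share. Of 24 regions at the genes' own promoters, 10 were shared, and of 4 at promoters of neighbouring genes, 2 were, where 59.7% of all promoter regions with a replicate 2 peak were shared. Of 51 regions outside promoters, 9 were shared, where 29.8% of all such regions were. In introns 2 of 31 were shared (26.0% over the genome), between genes 6 of 16 (32.6%), in untranslated exons 1 of 3 (28.0%) and in a coding exon 0 of 1 (35.0%). At least 1 shared region outside promoters was present in 7 of the 9 loci, all but Tgfb1 and Smad2, where 31.5% of all protein-coding loci had one. Among loci whose gene is of similar length, the number of replicate 2 regions ranked from percentile 50.3 at Smad2 to 99.8 at Smad7. The number of shared regions ranked from 52.2 at Tgfbr2 to 98.1 at Skil. Gene bodies ran from 18.1 kb at Tgfb1 to 111 kb at Smad3, and the part of gene length in these counts was not tested.

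**Figure D2:**
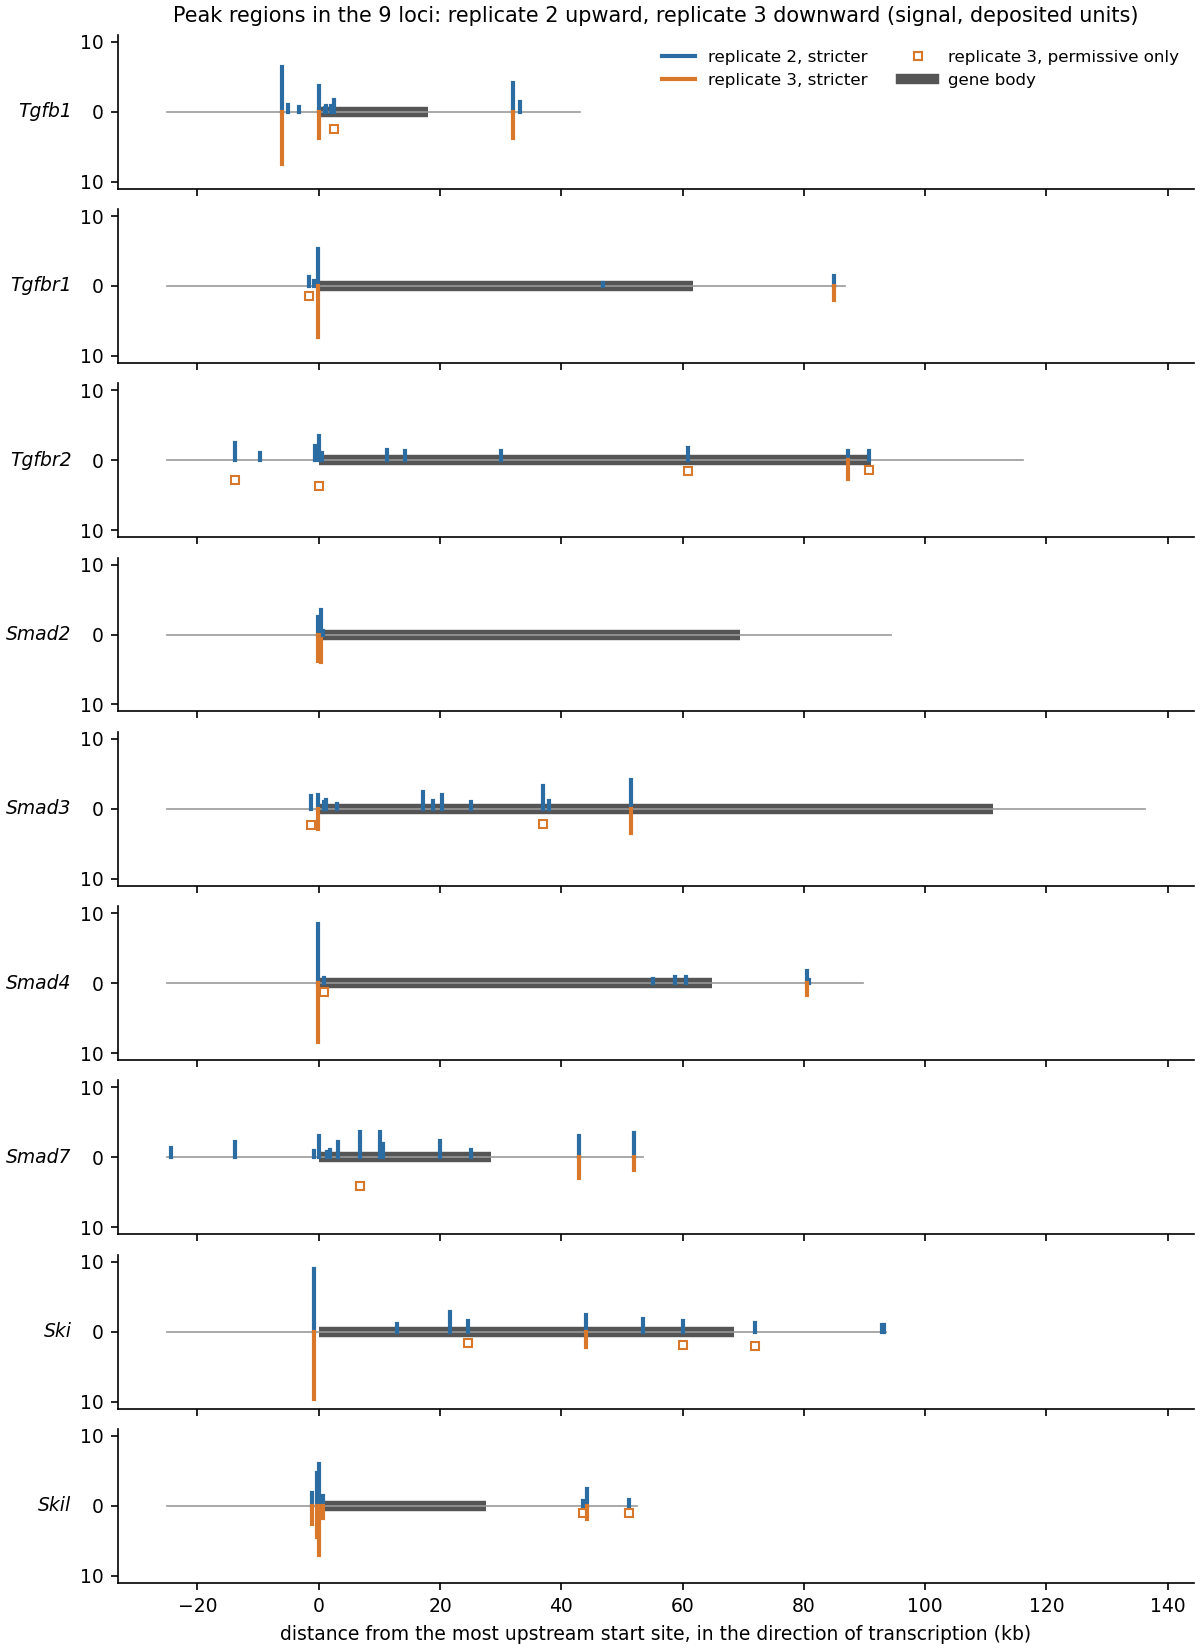
Regions along the 9 loci, placed by distance from the most upstream start site in the direction of transcription (kb, horizontal axis), with replicate 2 signal drawn upward and replicate 3 signal downward (deposited units, vertical axis), open squares for peaks in the permissive list of replicate 3 only and grey bars for gene bodies. Smad7 shows 14 replicate 2 regions against 2 stricter replicate 3 regions, both beyond the gene's end.

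Where both libraries had a region, the median ratio of its signals was near 1. Regions too weak for the stricter list of replicate 3 have no ratio, so the choice of shared regions bears on these values. The median ratio of replicate 3 to replicate 2 was 1.07 over the 21 shared regions (range 0.529 to 2.00), with 12 above 1, and 1.09 over the 15925 shared regions of the genome (10th to 90th percentile 0.779 to 1.58). The shared regions of the 9 loci had a median signal of 3.42 in replicate 2, and the regions of replicate 2 alone a median of 1.16. Over the whole genome these medians were 2.92 and 0.828. Of the 58 regions of replicate 2 alone, 15 (25.9%) were in the permissive list of replicate 3, where 28.4% of such regions of the genome were. A signal of 3 or more was reached by 5 of the 58: the Tgfbr2 promoter, an intron of Smad3, and the promoter and 2 intronic sites of Smad7. The 2 of these with no peak in the permissive list of replicate 3 were both at Smad7.

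**Figure D3:**
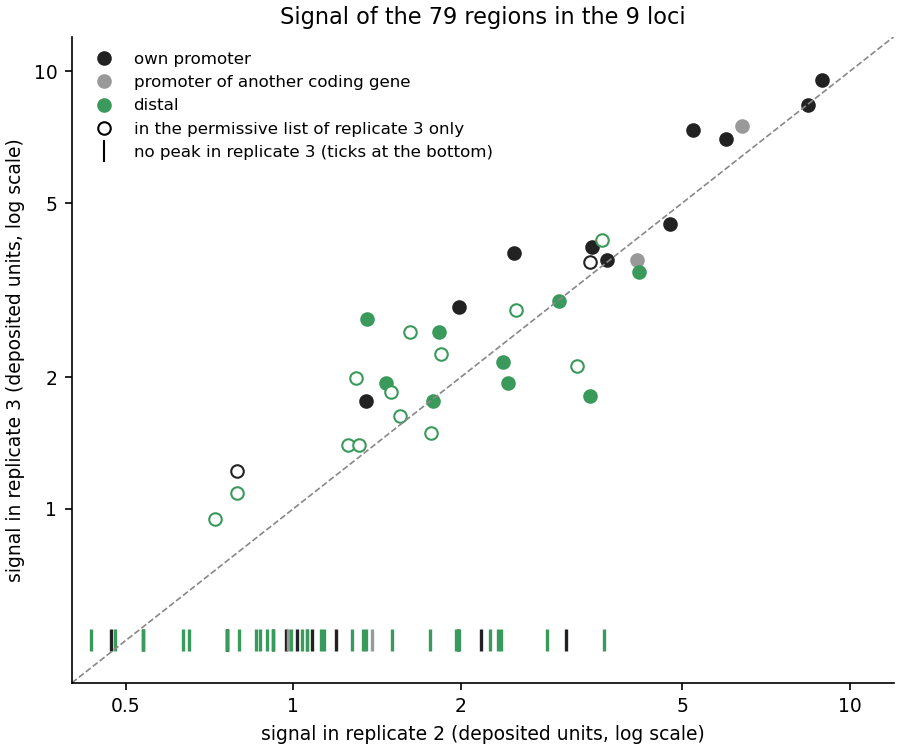
Signal of the 79 regions in replicate 2 (horizontal axis) and replicate 3 (vertical axis), both in deposited units on log scales, coloured by position, with open circles for regions in the permissive list of replicate 3 only and ticks at the bottom for the regions with no peak in replicate 3. The dashed line marks equal signal, and of the 21 filled points 12 lie above it.

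Most footprints lay inside peaks, in these loci and over the genome. Replicate 2 had 326 footprints in the 9 loci, of which 245 (75.2%) lay in stricter peaks, and replicate 3 had 45, of which 37 (82.2%) did. Over the genome these shares were 75.4% and 89.6%. Of the 45 footprints of replicate 3, 27 (60.0%) overlapped a footprint of replicate 2, where 66.9% of all its footprints did. Counts per locus in replicate 2 ran from 10 at Smad2 to 63 at Smad7, and in replicate 3 from 1 at Tgfbr2 to 8 at Tgfb1. In the promoter windows, replicate 2 had 21 footprints at Smad7, 16 at Ski, 15 at Skil, 14 each at Tgfb1 and Tgfbr2, 12 at Smad4, 9 at Tgfbr1, 8 at Smad2 and 6 at Smad3. In the same windows replicate 3 had 5 at Skil, 4 each at Tgfbr1, Smad2, Smad4 and Ski, 3 each at Tgfb1 and Smad3, and 0 at Tgfbr2 and Smad7, the genes without a stricter promoter peak there. These counts take in the windows of all annotated starts of a gene and are not scaled to length. Smad7 has several starts spread along the gene, so its windows cover more sequence than those of a gene with a single start. Of the 21 shared regions, 17 had a footprint in each library and 14 had footprints of both libraries that overlapped. No share over the shared regions of the genome stands beside these counts, so they do not set the loci apart from that background.

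Short sequences known as binding sites were counted in windows of 200 bp centred on each stricter peak, on both strands, and set beside all stricter peaks of the same library and kind. GGCGCC was present in 13 of 29 promoter windows of the loci in replicate 2 (44.8%), where 18.6% of all promoter windows held it, and in 6 of 14 in replicate 3 (42.9%), where 20.9% did. The promoter windows of the loci were also richer in G and C, with medians of 70.5% and 76.0% in replicates 2 and 3 against 64.5% and 66.5%, and the part of that composition in the count was not tested. Some of the windows come from the same promoter, so they are not independent. CAGAC was present in 22 of 51 windows outside promoters in replicate 2 (43.1%, all such windows 42.6%) and in 3 of 9 in replicate 3 (33.3%, all 42.1%). The SMAD palindrome GTCTAGAC was in none of the 80 windows of replicate 2, where 0.165% of all its windows held it. In replicate 2 the RUNX core TGTGGT was in 10 of 51 windows outside promoters (19.6%, all windows 23.7%), the AP-1 sequence TGANTCA in 7 (13.7%, all 6.52%), the ETS core CCGGAAG in 5 (9.80%, all 3.28%) and the CTCF consensus in 2 (3.92%, all 16.1%). In replicate 3 these were in 0, 2, 2 and 2 of only 9 windows, where 18.5%, 5.83%, 3.66% and 25.4% of all its windows outside promoters held them. For CTCF the members' share was thus 3.92% in replicate 2 and 22.2% in replicate 3. GGGCGG, which can share bases with GGCGCC, was in 18 of 29 promoter windows of replicate 2 (62.1%, all 54.0%) and 11 of 14 of replicate 3 (78.6%, all 64.3%).

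Matches were also placed against the footprints, allowing 5 bp on either side. This was done in the regions of the 9 loci only. No share over all peaks stands beside these counts, so they do not set the loci or the sequences apart from that background. In the regions of the 9 loci, 29 of 64 GGGCGG matches, 10 of 25 GGCGCC matches and 9 of 71 CAGAC matches lay within a footprint of replicate 2. In both libraries this held for 5, 2 and 0 of them. The 2 GGCGCC matches were in the promoters of Smad4, at chr18:73703927-73703932, and Skil, at chr3:31095101-31095106. All 3 CTCF matches lay within replicate 2 footprints: at the Tgfbr1 downstream site shown above, downstream of Skil at chr3:31139218-31139229, and in the Ccdc97 promoter at chr7:25720160-25720171. Of these, 0 lay within a footprint of replicate 3. NRF1 sites, GCATGCGC, within footprints of both libraries were found at the B9d2 and Ccdc97 promoters and at none of the 9 genes' own.

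Beyond the 9 genes, the wider pathway was described by a list of genes that handle the ligand, receptors, further SMADs and regulators such as ubiquitin ligases. Of 40 further genes of the pathway, 23 (57.5%) had a stricter promoter peak in both libraries, 9 in replicate 2 only and 8 in neither, where 40.9% of protein-coding genes had one in both. By role, 15 of 16 regulators, 3 of 4 further SMAD genes, 2 of 11 receptors and 3 of 9 ligand and activation genes had a peak in both. Counting every promoter peak of replicate 2, shared or not, the numbers were 16 of 16, 3 of 4, 9 of 11 and 4 of 9. The differences between roles were not tested. Among the regulators, the ubiquitin ligase gene Wwp1 had the highest promoter signal, with 10.5 in replicate 2 and 9.62 in replicate 3 (mean 10.04 ± 0.598, n = 2). Rnf111, which encodes the ligase Arkadia that degrades SMAD7, SKI and SKIL, had 6.79 and 7.77. Bambi, a decoy receptor, had 5.69 and 5.83, and Smurf1, a ligase that targets receptors and SMADs, had 4.86 and 6.14. Map3k7, the kinase TAK1 of the SMAD-independent branch, had 5.50 and 5.28, and Fkbp1a, which encodes a protein bound to the resting type I receptor, had 4.87 and 5.69. The inhibitory Smad6 had 1.89 and 3.03, below the signals of most regulators. Neither stricter list had a promoter peak for the BMP and endothelial receptor genes Bmpr1b and Acvrl1, the latent-complex genes Ltbp1 and Ltbp3, Itgb8, which encodes an integrin chain that releases active TGF-beta, and Furin, the protease that cleaves the TGF-beta precursor. Furin and Ltbp1 had a peak in the permissive list of replicate 2, with 0.880 and 0.373.

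**Figure D4:**
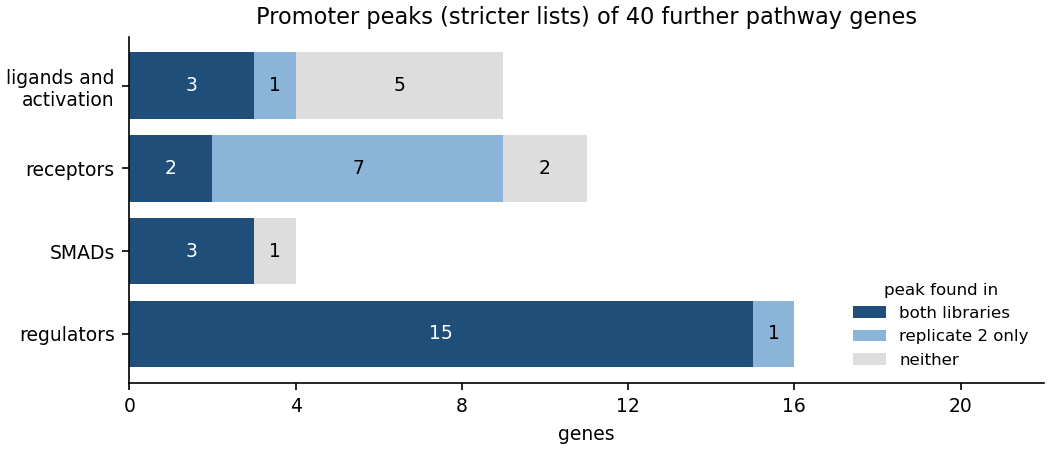
Number of further pathway genes (horizontal axis) in each of 4 roles (vertical axis), divided by whether a stricter promoter peak was found in both libraries, in replicate 2 only or in neither. Of the 16 regulators 15 have a peak in both libraries, and of the 11 receptors 7 have one in replicate 2 only.

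Smad7 and Skil tied for the most shared regions outside promoters, 2 each, and were compared with all other protein-coding loci by the distance over the log2 of 1 plus the peaks of each library and the log2 of the gene's length. Nearest to Smad7, with its 14 regions in replicate 2 and 2 in replicate 3, were Aloxe3 at a distance of 0.29, Ppil6 at 0.33 and Tpst2 at 0.46. Nearest to Skil, with 7 and 5, were Efcab12 at 0.01, Obsl1 at 0.02 and Ttll1 at 0.02. This likeness is over 2 libraries and 1 length, and describes counts only.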

How the data were processed

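Per the labels, all lists are on mm10, and per the deposited notes each came from its library's own alignments. Names of the aligner, peak caller and footprint caller were not given in the sources used here. Signal, the authors' value for each peak, has no stated scaling. In the permissive lists every signal value below 2 was a whole multiple of a single step (261 distinct values in replicate 2, 37 in replicate 3, tolerance 0.05 of the step). If signal is per 1e+06 tags, the steps stand for 1.34e+08 tags in replicate 2 against 2.21e+07 in replicate 3. False discovery rates (q-values), deposited per stretch of positions, described the regions. The authors' footprint lists hold a constant in that column (p-value unit), so only intervals were used.

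Peaks sharing 1 bp or more were merged into regions, and percentiles rank a peak within its library. No test was run, since there is 1 group of 2 libraries. The members and lists were chosen with earlier results of these data known. The text names the 9 genes, coding genes with a promoter peak in their loci, every shared region, the 2 strongest regions of replicate 2 alone per locus, of the pathway list the 6 genes of highest mean promoter percentile and up to 6 without a peak, and the 3 loci most like the one richest in shared distal regions. Smad6, the Smad7 promoter and the motif matches in footprints were singled out after their values were seen. Alternatives varied the list used, the count of peaks, overlap, promoter window, flank and libraries. Scripts were tested on simulated data, with Python 3.11.15, scipy 1.17.1, numpy 2.4.6, matplotlib 3.10.9, pysam 0.24.0 and pandas 2.3.3. The result of 1 marker gene by itself is not reported here.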

Additional observations from a re-analysis of the deposited data

How the results depend on the processing

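With the permissive lists, the peaks of replicate 3 in the 9 loci rose from 23 to 42 and the shared regions from 21 to 37. With the 17061 strongest peaks of replicate 2, the number of stricter peaks in replicate 3, replicate 2 had 41 peaks in the loci in place of 80. Leaving out each library in turn gave 21 to 79 regions. With a library left out, the counts here and below are of the other library's peaks alone, so they are no check on sharing. The other counts for the whole set stayed within 1.5 times: members with a promoter peak in both libraries ran from 5 under a reciprocal overlap of 50% to 9 without replicate 3, and pathway genes from 21 with a promoter window of 500 bp to 32 without replicate 3. Single loci moved more: with flanks of 10 kb Smad7 had 0 shared regions in place of 2, and at Tgfbr2 the shared regions were 0 with equal numbers of peaks and 5 with the permissive lists in place of 1. The 30 promoter signals recomputed with the permissive lists and the 500 bp window did not change. That is little check, since the same highest peak was read again. With the 500 bp window Ski had no promoter peak in either library, and those cases are not among the 30. The 23 stricter peaks of replicate 3 bound the shared set. The depth of either library is known only if signal is scaled to it, and the part of depth in the shared counts was not tested.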
